A study of Mus musculus with 9 samples.

Results

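Mitochondrial beta-oxidation enzymes were examined in mouse liver through 10 genes chosen by name: Cpt1a and Cpt2, Acadvl, Acadl, Acadm, Hadha, Hadhb and Hadh, and Eci1 and Decr1. Every probe set that the array's annotation pairs with a single gene symbol was taken where that symbol was among the 10, which gave 19 probe sets out of 32801 named ones, and 10 genes out of 17514. All 10 genes were present, 6 of them with more than 1 probe set. The livers came from c57Bl/6 mice kept on chow until the study. The 5 HFD arrays carry liver RNA of mice on a Harlan-Teklad high-fat diet with 21% fat, which supplied 42% of the calories, and the 4 control arrays carry liver RNA of mice labelled control, whose diet is not described further. Sex, age, time on the diet and batch are not given in the labels, and they do not state whether the arrays come from different mice. The p-values below therefore speak only of variation among these 9 arrays, part or all of which may be technical.

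Long-chain fatty acids enter the mitochondrion as carnitine esters, made by Cpt1a at the outer membrane and turned back into acyl-CoA by Cpt2 at the inner membrane. Each turn of the spiral that follows oxidises the acyl-CoA, hydrates it, oxidises it again and cleaves off acetyl-CoA, with Acadvl, Acadl, Acadm, Hadha, Hadhb and Hadh as core enzymes here. Double bonds already present in unsaturated acids block the spiral unless the auxiliary enzymes Eci1, an enoyl-CoA isomerase, and Decr1, a dienoyl-CoA reductase, move or reduce them. In mouse liver many of these genes are known targets of the nuclear receptor PPARalpha, and the pathway supplies energy and acetyl-CoA for ketone bodies during fasting.

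The deposited values are log2 differences of a probe set from its own baseline, so that an array can be compared with another but a gene's level cannot be set against another gene's. HFD replicate 5 stood apart from the other arrays. The standard deviation of its values over all probe sets was 0.33, against 0.23 to 0.27 for the other HFD arrays and 0.22 to 0.24 for the control arrays. The 3′ minus 5′ difference of the control probe sets for Actb, Gapdh and Pcx, which rises when RNA is broken or copied incompletely, averaged 1.02 on HFD replicate 5 and 0.65 on HFD replicate 3. It lay between -0.62 and -0.31 on the other HFD arrays and between -0.45 and -0.032 on the control arrays. Calls of the genes named below that change without HFD replicate 5 are given both ways. Whether RNA quality has a part in any result was not tested beyond these fits.

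**Figure D1:**
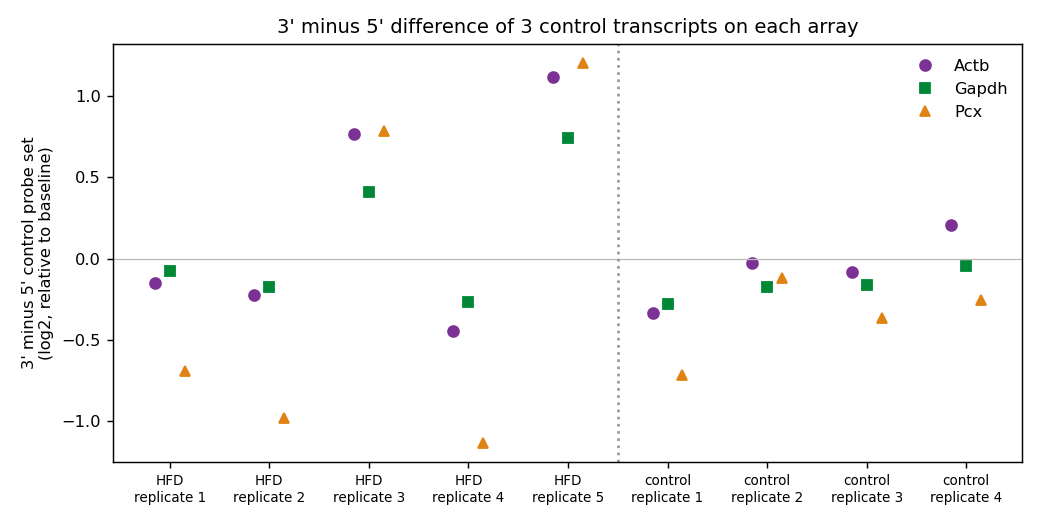
The 3′ minus 5′ difference (log2, relative to baseline) of the control probe sets for Actb, Gapdh and Pcx on each array, HFD arrays on the left and control arrays on the right of the dotted line. HFD replicates 5 and 3 are the highest for all 3 transcripts, for example 1.12 and 0.77 for Actb.

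Over all 9 arrays, 5 of the 19 probe sets, from 3 of the 10 genes, were higher in HFD livers and none was lower. These were 2 of the 3 probe sets of Hadh, the probe set of Eci1 and both probe sets of Decr1, with differences of 0.34 to 0.60 on the log2 scale, or 1.27-fold to 1.52-fold. A probe set or gene counts as higher or lower where limma's adjusted p (Benjamini-Hochberg over all 41782 probe sets) is under 0.05. By the same rule 2.04% of all probe sets were higher and 1.23% lower, and 3.66% of all genes had a higher and 1.98% a lower probe set. Of the 6 core genes, 1 passed, with 2 of 11 probe sets. Both auxiliary genes passed with all 3 probe sets, and neither carnitine palmitoyltransferase passed with any of its 5. The median difference was 0.075 over the core probe sets, 0.48 over the auxiliary ones and 0.15 over those of Cpt1a and Cpt2, beside -0.0078 over all probe sets. The core median depended on single arrays and on the choice of probe sets: it was 0.24 without HFD replicate 2, 0.23 without control replicate 3, 0.14 with probe sets averaged and 0.31 without the 25% of probe sets of smallest SD. In each of the next 2 fits auxiliary calls were lost while both calls of Hadh were made. Without HFD replicates 3 and 5 neither probe set of Decr1 passed (limma adjusted p = 0.0708 and 0.106), and with the variance not moderated neither Eci1 (adjusted p = 0.0751) nor Decr1 passed (adjusted p = 0.0585 and 0.137 with limma's unmoderated test). The fit without probe sets ending in _x_at or _s_at, which leaves out both called probe sets of Hadh, went the other way. There Eci1 and Decr1 1419367_at passed (limma adjusted p = 0.0249 and 0.0425). Decr1 1449443_at and Hadh 1460184_at did not (limma adjusted p = 0.0514 and 0.113). The medians above describe the chosen genes and were not tested against each other.

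**Figure D2:**
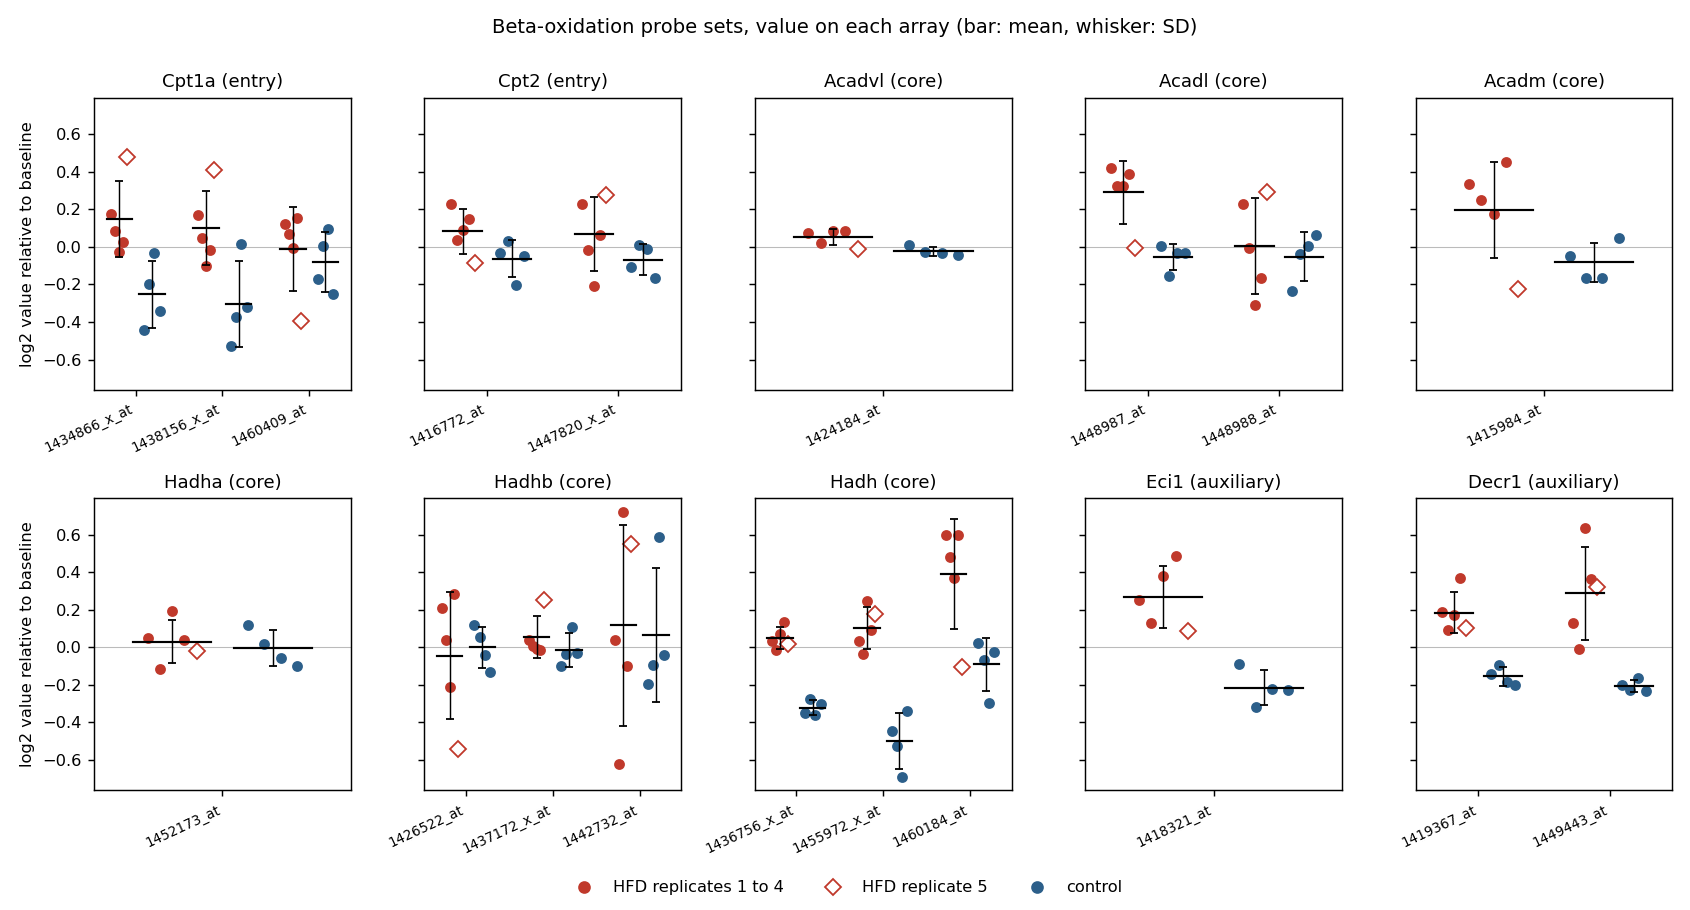
Value of each of the 19 probe sets on each array (log2, relative to the baseline of the probe set), HFD to the left of control, with the mean as a bar and the SD as a whisker (n = 5 HFD and 4 control). The _x_at probe sets of Hadh, that of Eci1 and both of Decr1 separate by diet, and Hadha and Hadhb overlap. HFD replicate 5 (open diamond) falls among or below the controls for Acadm, for Acadl 1448987_at and for Hadh 1460184_at.

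At the entry step, Cpt1a, the transferase that malonyl-CoA inhibits, did not pass with any of 3 probe sets. For 1434866_x_at the HFD arrays read 0.18, 0.087, -0.028, 0.028 and 0.48, and the control arrays -0.44, -0.20, -0.030 and -0.34. Every HFD array was thus above every control array, although HFD replicate 3 and control replicate 3 were nearly level. The difference was 0.40 ± 0.12 (standard error; limma adjusted p = 0.109; exact two-sided permutation p = 0.0159, the smallest that 5 against 4 arrays allow). Every probe set whose groups do not overlap has this same exact p, and after Benjamini-Hochberg adjustment it was 0.198. For 1438156_x_at the difference was also 0.40 ± 0.13 (limma adjusted p = 0.135), with control replicate 3 among the HFD arrays. For 1460409_at it was 0.070 ± 0.12 (95% interval -0.20 to 0.34), and there HFD replicate 5 was the lowest of all arrays at -0.39, while on both other probe sets it was the highest. Names ending in _x_at mark probe sets whose probes may also bind other transcripts.

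Cpt2, the inner membrane transferase, differed by 0.15 ± 0.085 for 1416772_at and by 0.14 ± 0.10 for 1447820_x_at, and the groups overlapped for both (limma adjusted p = 0.438 and 0.571). The 95% intervals ran from -0.041 to 0.33 and from -0.092 to 0.37. Without HFD replicate 5 none of the 5 probe sets of the transferases passed (lowest limma adjusted p = 0.137).

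Among the core enzymes, the acyl-CoA dehydrogenases open each turn, Acadvl on very long, Acadl on long and Acadm on medium chains. Acadm (1415984_at) read 0.34, 0.25, 0.17, 0.45 and -0.22 on the HFD arrays, against -0.048, -0.16, -0.16 and 0.048 on the control arrays. The first 4 HFD arrays lay above all controls and HFD replicate 5 below all of them. The difference was 0.28 ± 0.13 with all arrays (limma adjusted p = 0.300) and 0.38 ± 0.089 without HFD replicate 5 (limma adjusted p = 0.0490).

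Acadl gave a different answer with each of its 2 probe sets. For 1448987_at the HFD arrays read 0.42, 0.32, 0.32, 0.39 and -0.0046, and the control arrays 0.0046, -0.16, -0.031 and -0.032. HFD replicate 5 was just below the highest control and the other HFD arrays stood well above. The difference of 0.34 ± 0.095 did not pass (limma adjusted p = 0.0840), while without HFD replicate 5 it was 0.42 ± 0.073 and passed (limma adjusted p = 0.0165). For 1448988_at the HFD arrays ran between -0.31 and 0.29 and the control arrays between -0.24 and 0.065, with a difference of 0.059 ± 0.13. Its sign turned without HFD replicate 5, at -0.013, and without control replicate 1, at -0.0030. Acadvl (1424184_at) had the narrowest spread of all members, between -0.011 and 0.085 on the HFD arrays and between -0.044 and 0.011 on the control arrays. Its difference of 0.075 ± 0.063 did not pass (limma adjusted p = 0.617), with a 95% interval of -0.064 to 0.21.

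Hadha and Hadhb encode the alpha and beta subunits of the trifunctional protein, which carries out the last steps of the spiral on long chains at the inner membrane. Neither showed a difference beyond the spread between arrays. Hadha (1452173_at) ran between -0.12 and 0.20 on the HFD arrays and between -0.10 and 0.12 on the control arrays, a difference of 0.034 ± 0.083 (95% interval -0.15 to 0.22). The 3 probe sets of Hadhb differed by -0.045 ± 0.16, 0.070 ± 0.082 and 0.053 ± 0.26, the last, 1442732_at, with HFD arrays from -0.62 to 0.72. The lowest limma adjusted p of these 4 probe sets was 0.737. The interval of Hadha excludes the differences of 0.34 to 0.60 seen for Hadh, Eci1 and Decr1. So do the 95% intervals of Hadhb 1426522_at, -0.39 to 0.30, and 1437172_x_at, -0.11 to 0.25, over all 9 arrays. That of Hadhb 1442732_at, -0.52 to 0.63, does not.

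Hadh encodes the hydroxyacyl-CoA dehydrogenase of the matrix, which acts on medium and short chains, and it was the only core gene to rise over all 9 arrays. For 1455972_x_at the HFD arrays read 0.036, -0.036, 0.25, 0.093 and 0.18, and the control arrays -0.45, -0.53, -0.69 and -0.34. The groups were separated by a gap wider than the range of the HFD arrays, and the difference was 0.60 ± 0.092 (1.52-fold, limma adjusted p = 0.00704). For 1436756_x_at the HFD arrays read 0.036, -0.016, 0.071, 0.14 and 0.016, and the control arrays -0.35, -0.28, -0.36 and -0.30. Here too all HFD arrays lay above all controls, by 0.37 ± 0.066 (1.29-fold, limma adjusted p = 0.0141).

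The remaining Hadh probe set, 1460184_at, the only one of the 3 whose name does not end in _x_at, read 0.60, 0.48, 0.37, 0.60 and -0.11 on the HFD arrays, against 0.023, -0.065, -0.30 and -0.023 on the control arrays. HFD replicate 5 fell below 3 of the 4 controls and the other HFD arrays were above all of them. The difference of 0.48 ± 0.14 did not pass (limma adjusted p = 0.108), and without HFD replicate 5 it was 0.60 ± 0.095 and passed (limma adjusted p = 0.0104). With the 3 probe sets averaged, Hadh was higher by 0.49 ± 0.072 (limma adjusted p = 0.00450 over 17514 genes). It was called by 1455972_x_at whichever single array was left out, and by 1436756_x_at except without control replicate 3 (limma adjusted p = 0.0512).

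Both auxiliary enzymes rose in HFD livers. Eci1 (1418321_at) read 0.25, 0.13, 0.38, 0.48 and 0.089 on the HFD arrays, against -0.089, -0.32, -0.22 and -0.23 on the control arrays. All HFD arrays were above all controls, HFD replicate 5 being the lowest of them and control replicate 1 the highest control. The difference was 0.48 ± 0.097 (1.40-fold, limma adjusted p = 0.0241), and 0.53 ± 0.095 without HFD replicate 5 (limma adjusted p = 0.0189). It was not past the threshold when control replicate 2, 3 or 4 or HFD replicate 3 was left out (highest limma adjusted p = 0.0882).

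Decr1 (1419367_at) read 0.19, 0.093, 0.17, 0.37 and 0.10 on the HFD arrays, against -0.14, -0.093, -0.19 and -0.20 on the control arrays. Its other probe set, 1449443_at, read 0.13, -0.011, 0.63, 0.36 and 0.32 on the HFD arrays, against -0.20, -0.23, -0.16 and -0.23 on the control arrays. The groups did not overlap in either, and in the second the HFD arrays spread far more widely (SD 0.25, n = 5) than the controls (SD 0.034, n = 4). The differences were 0.34 ± 0.077 (1.27-fold, limma adjusted p = 0.0402) and 0.49 ± 0.12 (1.41-fold, limma adjusted p = 0.0490), both close to the threshold. Each of the 2 passed in only 1 of the 9 fits that leave out an array, 1419367_at without HFD replicate 5 (limma adjusted p = 0.0449) and 1449443_at without HFD replicate 2 (limma adjusted p = 0.0264). In the other such fits the highest limma adjusted p was 0.114 for 1419367_at and 0.135 for 1449443_at. Averaged over both probe sets, Decr1 was higher by 0.42 ± 0.079 (limma adjusted p = 0.0137 over 17514 genes).

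**Figure D3:**
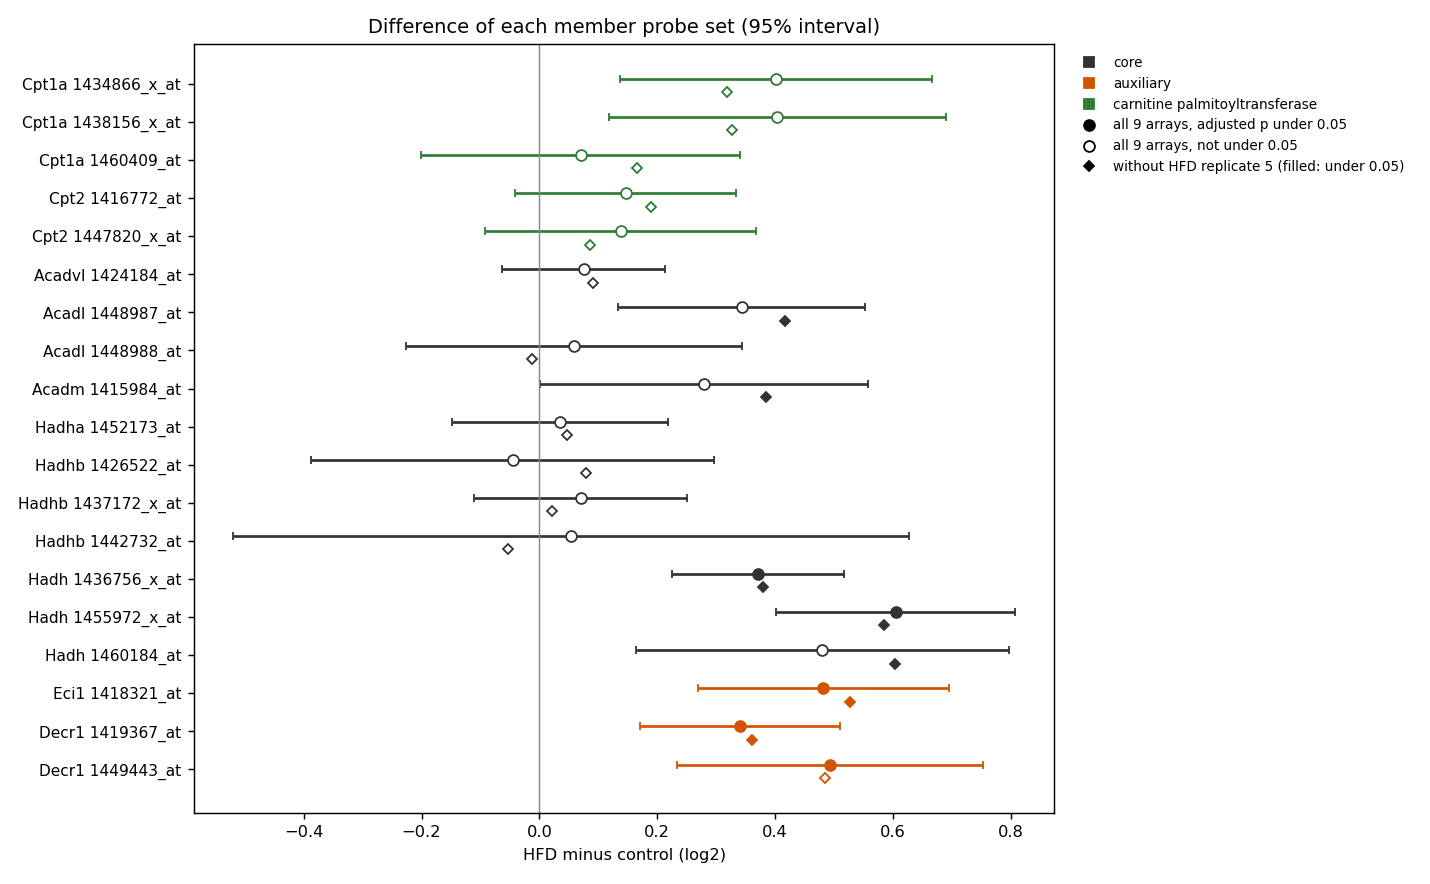
Difference of each member probe set, HFD minus control (log2), as a circle with its 95% interval over all 9 arrays and as a diamond without HFD replicate 5, filled where the adjusted p is under 0.05 and coloured by role. All 3 auxiliary probe sets and 2 of Hadh are filled over all arrays, and Acadl 1448987_at, Acadm and Hadh 1460184_at are filled only without HFD replicate 5.

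Counted over arrays rather than by the fit, every HFD array lay above every control array in 6 of the 19 probe sets, beside 4.50% of all probe sets, and below every control array in none, beside 3.50%. These were the 5 that passed and Cpt1a 1434866_x_at. Leaving out HFD replicate 5, the other 4 HFD arrays lay above every control in 11 of the 19, beside 5.70% of all probe sets. In that fit 7 probe sets from 5 genes were higher, 4 of them shared with the fit on all arrays, beside 1.90% of all probe sets and 3.40% of all genes. The 3 that were added belong to Acadl, Acadm and Hadh, and the 1 that was lost is Decr1 1449443_at (limma adjusted p = 0.0786). Without HFD replicates 3 and 5, left out together after the data were seen, 6 probe sets from 4 genes were higher, beside 1.47% of all probe sets. HFD replicate 5 was the lowest HFD array in 8 of the 13 member probe sets without _x_at in their name, beside 25.1% of all such probe sets, and the highest in 4 of the 6 with it, beside 40.6%.

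**Figure D4:**
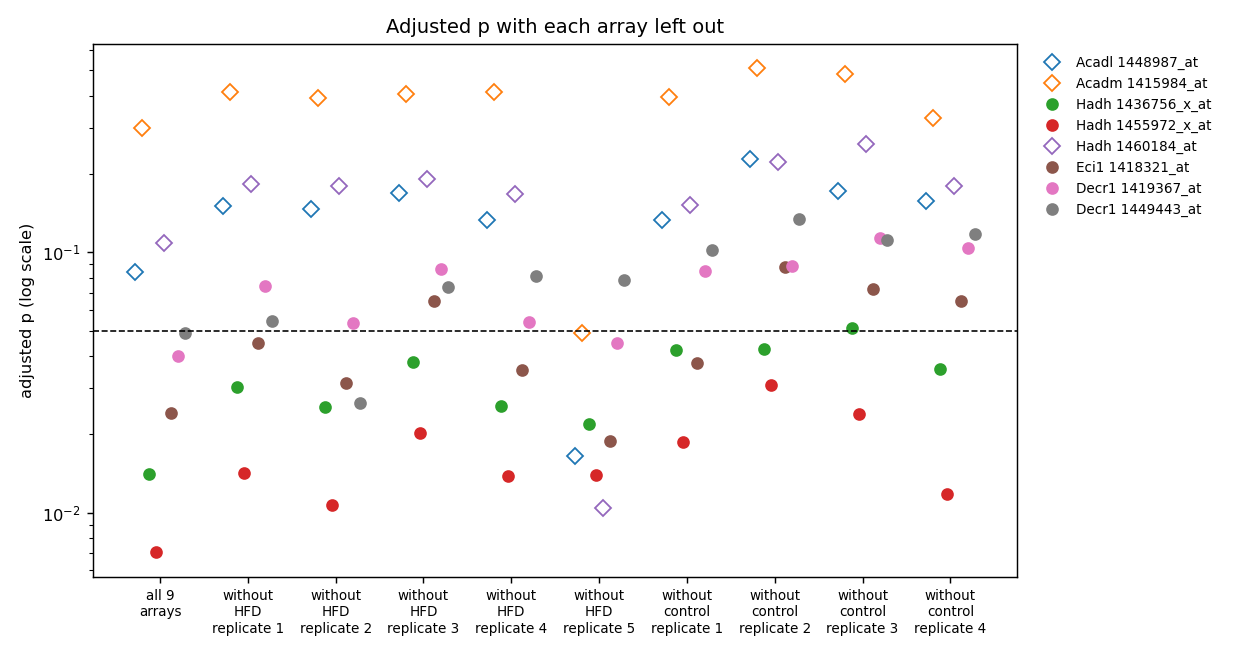
Adjusted p (log axis) of the 8 member probe sets that passed with all 9 arrays (filled circles) or only without HFD replicate 5 (open diamonds), for all arrays and with each array left out in turn. Hadh 1455972_x_at stays under the dashed line at 0.05 in every fit, and the 2 probe sets of Decr1 lie above it in most.

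Promoter sequence is shown for Hadh and Eci1, which rose, and for the trifunctional protein, whose genes stand head to head and did not pass. The 250 bases before the gene start, from RefSeq on GRCm38.p6, were at hand for 9 of the 10 members, not for Decr1. Capitals mark GC boxes, the letters GGGCGG on either strand. Hadh lies on the minus strand at chr3:131272102-131272351, Eci1 on the plus strand at chr17:24426433-24426682, and Hadhb on the plus strand at chr5:30155003-30155252. The last shares 228 bases with the window of Hadha, which is read from the other strand.
Hadh: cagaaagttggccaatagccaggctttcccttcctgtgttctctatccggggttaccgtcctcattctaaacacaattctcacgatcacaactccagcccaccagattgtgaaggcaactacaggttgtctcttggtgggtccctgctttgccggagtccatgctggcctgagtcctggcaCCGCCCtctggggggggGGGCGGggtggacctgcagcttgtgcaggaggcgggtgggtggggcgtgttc
Eci1: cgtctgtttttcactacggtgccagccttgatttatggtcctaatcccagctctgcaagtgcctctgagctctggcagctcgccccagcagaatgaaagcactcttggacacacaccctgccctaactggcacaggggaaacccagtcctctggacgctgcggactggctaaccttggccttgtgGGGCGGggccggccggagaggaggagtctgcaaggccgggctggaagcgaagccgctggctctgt
Hadhb: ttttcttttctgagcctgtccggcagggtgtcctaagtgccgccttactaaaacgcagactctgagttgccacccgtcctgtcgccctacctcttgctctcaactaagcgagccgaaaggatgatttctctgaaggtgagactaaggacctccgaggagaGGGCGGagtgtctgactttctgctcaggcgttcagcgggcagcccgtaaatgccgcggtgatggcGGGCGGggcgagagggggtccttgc
A GC box stood in 7 of the 9 windows and in 32.7% of all 32851 windows of this length, and it was found in the windows of both the genes that rose and those that did not pass. The hexamer AGGTCA on either strand, which nuclear receptors bind, stood in those of Cpt1a, Acadvl and Acadm, and in 14% of all. The letters CCAAT on either strand stood in those of Cpt1a and Hadh, and in 33.8% of all. A direct repeat of that hexamer, spaced by 1 base, with 1 letter of each hexamer left free and searched on both strands, stood in none of the 9 and in 0.338% of all. No match says only that these letters are not in this window.

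Of 25 further genes on a list set around mitochondrial fatty acid oxidation, 24 were measured, with 39 probe sets, and Cpt1b was not analysed here. The list is not limited to enzymes of that pathway alone. A higher probe set was found in 4 of the 24 and a lower one in none, and the median difference of the 39 probe sets was 0.077. In carnitine transport, Slc25a20, the carrier that brings acylcarnitine across the inner membrane, rose by 0.42 ± 0.070 for 1423108_at (limma adjusted p = 0.0102), and Crat, the acetyltransferase of carnitine, by 0.71 ± 0.16 for 1417008_at (limma adjusted p = 0.0427). The other probe set of Slc25a20 and the other 2 of Crat did not pass, and the call of Crat was not made without HFD replicate 5 (limma adjusted p = 0.0646). No further acyl-CoA dehydrogenase passed among 7 with all arrays, and 2 passed without HFD replicate 5. Of these Acads, which takes short chains, differed by 0.36 ± 0.11 with no overlap of the groups (limma adjusted p = 0.102). Acad9 differed by 0.37 ± 0.11 for 1453206_at with all arrays (limma adjusted p = 0.118) and was higher by 0.45 ± 0.092 without HFD replicate 5 (limma adjusted p = 0.0301). Acad10, named after its values were seen, differed by 0.38 ± 0.13 for 1429339_a_at with all arrays (limma adjusted p = 0.152) and was higher by 0.49 ± 0.087 without HFD replicate 5 (limma adjusted p = 0.0185). These 2 probe sets also passed without HFD replicates 3 and 5. So did Acad11 1433545_s_at, also named after its values were seen, by 0.39 (limma adjusted p = 0.0431). With all arrays it differed by 0.050 ± 0.22 (limma adjusted p = 0.944). The other probe set of Acad10, 1447741_x_at, differed by -0.20 ± 0.089 with all arrays (limma adjusted p = 0.286). The other 2 of Acad9, 1429581_at and 1444394_at, differed by 0.30 ± 0.15 and -0.044 ± 0.10. None of these other probe sets passed in any of these fits.

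Hsd17b10, a matrix dehydrogenase that also acts on short hydroxyacyl-CoA, had the largest difference among these 24 genes. Its probe set 1448286_at read 0.51, 0.35, 0.13, 0.32 and 0.22 on the HFD arrays, against -0.28, -0.40, -0.52 and -0.13 on the control arrays, with no overlap. The differences of its 2 probe sets were 0.64 ± 0.10 (limma adjusted p = 0.00841) and 0.86 ± 0.13 (limma adjusted p = 0.00600), and both passed without HFD replicate 5. Acaa2, the matrix thiolase, did not pass with any of 3 probe sets. For 1455061_a_at HFD replicates 3 and 5 stood at -0.94 and -1.63 while the other HFD arrays lay between 0.25 and 0.27, and the controls between -0.026 and 0.18.

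Of 3 further auxiliary enzymes none passed. Ech1, a dienoyl-CoA isomerase, differed by 0.22 ± 0.082 without overlap of the groups (limma adjusted p = 0.194), and Eci3 by 0.18 ± 0.087 (limma adjusted p = 0.348). None of the 3 genes that pass electrons on from the dehydrogenases did either. Of these Etfa differed by -0.15 ± 0.20, with HFD replicates 3 and 5 at -0.41 and -0.83 and the other HFD arrays above all controls, and Etfb by 0.065 ± 0.065. Among 4 genes that handle the propionyl-CoA left by odd chains, Pcca, a subunit of propionyl-CoA carboxylase, rose by 0.54 ± 0.087 for 1451405_at (limma adjusted p = 0.00889). Its other probe set, 1447577_x_at, differed by -0.37 ± 0.15 (limma adjusted p = 0.251). Mmut, the mutase of the same route, differed by 0.13 ± 0.11 and 0.0034 ± 0.097 in its 2 probe sets.

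Of 10 regulators, 2 rose and none fell. Ppara, which encodes PPARalpha, rose in all 3 of its probe sets, by 0.86 to 1.34 (highest limma adjusted p = 0.0411), with the HFD arrays of 1449051_at between 0.10 and 0.59 and the control arrays between -1.55 and -0.10. Without HFD replicate 5 only 1449051_at passed, and without HFD replicates 3 and 5 none of the 3 did (lowest limma adjusted p = 0.0930). Prkaa2, a catalytic subunit of AMP-activated kinase, rose in 2 of 3 probe sets, by 0.93 ± 0.16 and 0.49 ± 0.10 (limma adjusted p = 0.0128 and 0.0292), of which only 1429464_at, by 0.93, passed without HFD replicates 3 and 5.

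Of 9 genes of the peroxisomal spiral 8 were analysed here, of which 3 rose and none fell. Decr2, the peroxisomal relative of Decr1, rose by 1.00 ± 0.15 (limma adjusted p = 0.00621). The thiolase Acaa1a rose by 0.59 ± 0.12 for 1456011_x_at (limma adjusted p = 0.0276), with HFD replicate 5 the highest array at 0.56. Its other probe set, 1456737_x_at, did not pass (limma adjusted p = 0.104). The thiolase Acaa1b rose as well, but did not pass without HFD replicates 3 and 5 (limma adjusted p = 0.0670). In that fit both probe sets of Hsd17b4, named after its values were seen, were higher (limma adjusted p = 0.03867 and 0.04935). With all arrays neither passed (limma adjusted p = 0.620 and 0.2122). Of 4 ketogenesis genes only 2 were analysed here, and both rose: Bdh1, which makes hydroxybutyrate, by up to 1.27 ± 0.091, and Acat1, the acetoacetyl-CoA thiolase, by up to 0.54 ± 0.095 (limma adjusted p = 0.000101 and 0.0133). A further probe set of Acat1, 1451271_a_at, passed with all arrays but not without HFD replicate 5 (limma adjusted p = 0.03125 and 0.05604). Another, 1424183_at, did not pass with all arrays but did without HFD replicates 3 and 5 (limma adjusted p = 0.2711 and 0.03069). The median difference was 0.14 over the 14 peroxisomal and 0.54 over the 5 ketogenic probe sets, beside 0.28 over the 19 of the 10 members.

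**Figure D5:**
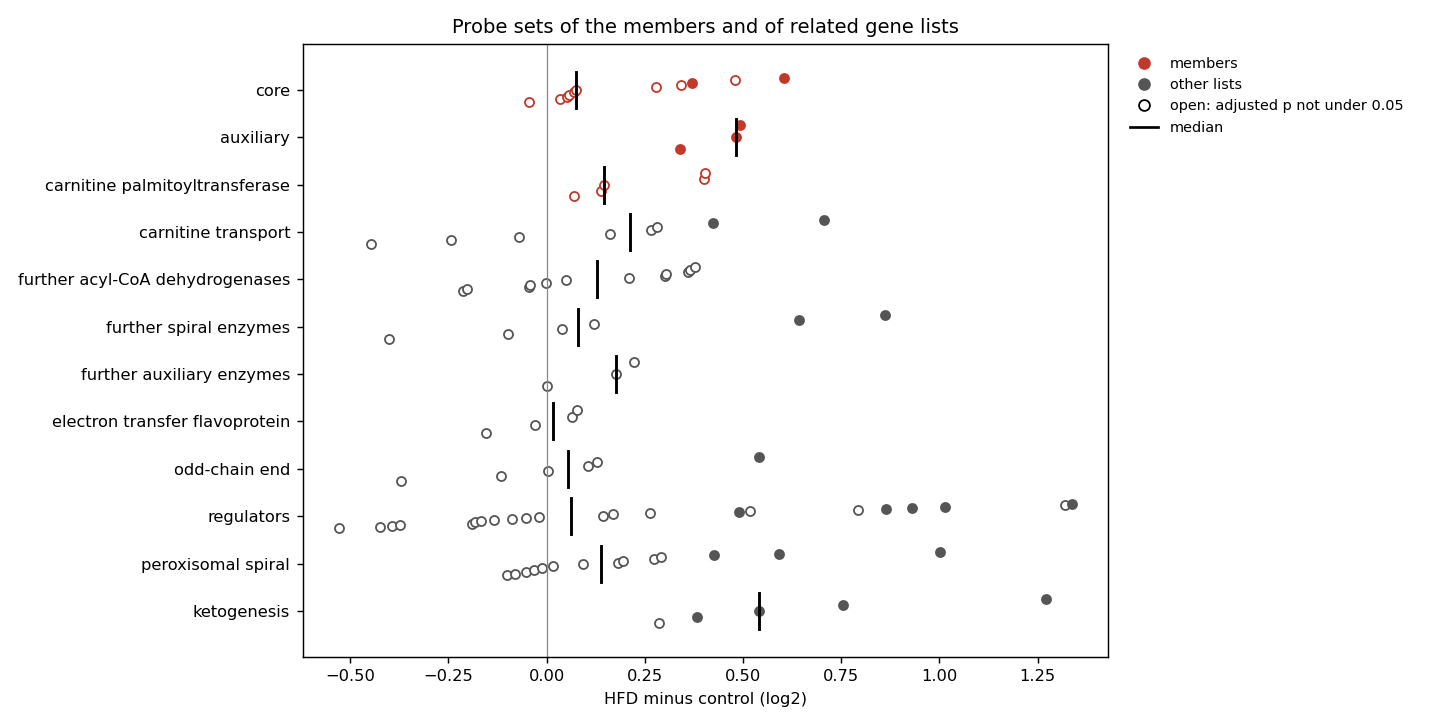
Difference of each probe set, HFD minus control (log2), for the members by role (red) and for the related gene lists (grey), filled where the adjusted p is under 0.05, with the median of each list as a black bar. The auxiliary enzymes have a median of 0.48, beside 0.075 for the core enzymes, which becomes 0.24 without HFD replicate 2, and 0.54 for ketogenesis.

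Some cell type markers differed between the diets as well, mainly those of Kupffer cells. Levels were removed by the centring, so that the presence of a cell type could not be checked, and fewer cells of a type cannot be told apart from less RNA per cell. Of 7 measured hepatocyte markers 1 was lower and none higher. Their mean ran from -0.25 to -0.028 on the HFD arrays and from 0.0090 to 0.23 on the control arrays, below the controls and opposite in sign to Hadh, Eci1 and Decr1. Of 10 Kupffer cell markers 7 were lower, beside 1.98% of all genes. Their mean ran from -1.28, on HFD replicate 5, to 0.10 on the HFD arrays and from 0.13 to 1.27 on the control arrays. Of 7 endothelial markers 1 was lower. Their mean ran from -1.04, again on HFD replicate 5, to 0.30 on the HFD arrays and from 0.071 to 0.59 on the control arrays. No count of markers without HFD replicate 5 is given here. In the lists for stellate, biliary, fat, muscle, red and lymphoid cells the difference of the means lay between -0.10 and 0.12, with 1 gene higher and none lower. The part of cell makeup in the differences of the members was not tested.

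The mean over the 10 genes of their deviations from the diet mean ran from -0.079 to 0.072 on the HFD arrays and from -0.011 to 0.015 on the control arrays, while single genes deviated by as much as -0.42 (Acadm on HFD replicate 5). The 5 genes outside the set with deviations most similar to this mean over the 9 arrays were Ptprb, Wdr64, Pou6f1, Tssk6 and Ifitm1. Their Pearson correlations with it were 0.95 to 0.96 and their Spearman correlations 0.82 to 0.97. Since the mean hardly moved on the control arrays, the Pearson correlations rest mostly on the HFD arrays. The Pearson correlations are the highest of all named probe sets, the arrays share 1 normalization, and the values are a description only.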

How the data were processed

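Liver RNA was labelled with biotin and hybridised to Affymetrix arrays, per the labels' protocols. Per the series' design text and the submitters' processing notes, RMA with quantile normalization was run by the authors, who then set every probe set relative to a median across samples. That baseline is not the median of these 9 arrays: in 92.8% of probe sets 2 arrays have values of equal size and opposite sign (tolerance 1e-05), so that 0 lies midway between them. A shift of the baseline leaves differences between arrays as they are. The deposited values were read as log2 differences from that baseline, since RMA gives log2 values, although no log base is stated. Centring allowed no filter on level, and the number of arrays limits the precision.

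Of 41842 probe sets, 60 control probe sets were left out of the tests. The annotation paired 32801 with 1 symbol, 862 with several and 8119 with none, and 32614 of those with 1 symbol were found by Entrez ID in the RefSeq table (GRCm38.p6), with 0 symbols changed. HFD was compared with control, with no covariate, in R 4.3.3 with limma 3.58.1 (eBayes after lmFit, two-sided, Benjamini-Hochberg over 41782 probe sets, threshold 0.05). No probe set was chosen to stand for a gene. A gene counted as higher or lower when at least 1 of its probe sets passed.

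The members and lists were chosen with earlier results of these data known. Named are all members, each list's genes past the threshold and its 2 genes of lowest p, and the 5 genes whose deviations were most like the mean over the members. Cpt1b is named only because no value is given for it. Acad10, Acad11 and Hsd17b4 were named after their values were seen. Replicate numbers only follow the accession order and pair no arrays. In 10 simulations with 41782 probe sets, 200 were changed and the noise of a probe set was equal on all arrays. There 34.2% of changes of 0.5 on the log2 scale and 86.6% of changes of 1 were recovered, and 4.19% of calls were false. The deposited data gave 851 higher and 512 lower calls, from arrays of unequal spread. The simulated shares need not hold for them. Alternatives tried were array medians subtracted, a further quantile normalization, probe sets averaged or represented by the largest SD, probe sets ending in _x_at or _s_at left out, the 25% of smallest SD left out, robust eBayes, array weights, an unmoderated test, stricter thresholds, exact permutation and each array left out. Added after seeing the data were a covariate for the 3′ minus 5′ difference and leaving out HFD replicates 3 and 5.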

Additional observations from a re-analysis of the deposited data

Results flagged for a closer look

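A single array lay far from the rest of its own diet group, by the ratio of its gap to the group's range, in 4 of 72 groups of values examined over the members and the list probe sets that passed, and chance flags about 1 in 20. Acadl 1448987_at stood at -0.0046 on HFD replicate 5, below the other HFD arrays, and Hadhb 1437172_x_at at 0.25 on the same array, above them. Acat1 1424182_at stood at 0.083 on HFD replicate 5, below the other HFD arrays. Hsd17b10 1438391_x_at stood at -0.13 on control replicate 4, above the other controls.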

How the results depend on the processing

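Leaving out each array in turn, between 1 and 7 member probe sets (5 with all arrays) and between 1 and 5 member genes (3 with all arrays) were higher, with none lower. The lowest count of probe sets came without control replicate 3, while leaving out HFD replicate 3 or control replicate 2 or 4 gave 2, and leaving out HFD replicate 1 or 4 or control replicate 1 gave 3. In the last 3 of these fits, in that order, 748, 870 and 614 were higher over all probe sets, against 851 with all arrays. The gene count was 1 without control replicate 2, 3 or 4 or HFD replicate 3. In the same fits 3 to 5 genes of the other mitochondrial oxidation list passed. The median difference ran from 0.073 to 0.24 for the core enzymes, from 0.41 to 0.52 for the auxiliary enzymes and from 0.11 to 0.21 for the carnitine palmitoyltransferases. Counts were 2 probe sets without _x_at and _s_at probe sets, 2 probe sets and 1 gene with the variance not moderated, and 1 probe set and 1 gene at an adjusted p under 0.01 or with at least 1.5-fold, where the other list gave 2 genes. With the 3′ minus 5′ difference as a covariate 7 probe sets from 4 genes were higher, while the higher calls over all probe sets also grew, to 1210, and 6 from 4 without HFD replicates 3 and 5, beside 1.47% of all probe sets. The core median was 0.14 with probe sets averaged, 0.18 with the probe set of largest SD, 0.31 without the 25% of smallest SD, which takes out 3 member probe sets, and 0.18 without HFD replicates 3 and 5. The median of the carnitine palmitoyltransferases was 0.27 with the probe set of largest SD. Over all probe sets 851 were higher and 512 lower, against 274 and 153 with the variance not moderated, 230 and 139 at an adjusted p under 0.01, 526 and 323 with at least 1.5-fold, 359 and 187 without control replicate 2, 436 and 237 without control replicate 3, and 467 and 262 without HFD replicate 3, with 453 higher without control replicate 4, and 327, 777 and 312 lower without control replicate 1, with the covariate and without HFD replicates 3 and 5. Over 17514 genes, 552 were higher and 353 lower with probe sets averaged, and 590 and 327 with the probe set of largest SD. The cause of these shifts was not tested.

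Signs turned only for probe sets far from the threshold. Hadhb 1426522_at was at 0.0047 after quantile normalization, 0.029 under array weights, 0.067 with the covariate and 0.18 without HFD replicates 3 and 5, and between -0.13 and 0.079 with single arrays left out. Hadhb 1442732_at was at -0.0024, -0.096, -0.10 and -0.29 in the same fits, and between -0.098 and 0.24 with single arrays left out. Hadha was at -0.0052 without HFD replicates 3 and 5 and between -0.0074 and 0.075 with single arrays left out, and Acadl 1448988_at between -0.013 and 0.14. The smallest adjusted p that exact permutation gave over all probe sets was 0.198, so that it could call none. No paired analysis was possible because the replicate numbers only follow the order of deposition. With 9 simulated arrays of equal noise, a difference of 0.5 was recovered in 34.2% of cases and one of 0.25 in 1%. Probe sets that did not pass are thus not shown to be equal.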
